A study of Mus musculus with 12 samples.

Results

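NF-kB is a family of transcription factors that is held in the cytoplasm by inhibitor proteins and released when receptors for TNF, interleukin-1 or bacterial products activate the IkB kinases. Many of its target genes encode proteins that feed back on the pathway. They include the IkB proteins Nfkbia, Nfkbiz and Bcl3, the subunits Nfkb1, Nfkb2 and Relb, and the ubiquitin regulators Tnfaip3 and Birc3. Icam1 and Tnfaip2 are targets with effector roles. In the inflamed gut the pathway is active in epithelium, immune cells and stroma, and enteric glia, which surround the neurons of the gut wall, can also respond through it.

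These 10 genes were followed by name in a table of 24394 genes, with the annotated locus of each name and the locus of highest mean where there were several. Of the 10, 8 had a locus of their own. For Nfkb1 and Icam1 the table held an annotated locus only as a merged entry, of Nfkb1 with Gm43430 and of Icam1 with Icam4, and the values given for both are those of the merged loci.

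The study used C57BL/6 mice with the genotype Sox10::CreERT2+/- / Rpl22tm1.1Psam/J. In these mice a tamoxifen-dependent Cre recombinase, driven by Sox10 regulatory sequence, adds an HA tag to the ribosomal protein Rpl22 in recombined cells, and every group carried both alleles and ate tamoxifen citrate chow (400 mg/kg) for 2 weeks and plain chow for 1 week. Ribosomes were pulled down through the tag from myenteric plexus, dissected from distal colon 48 hours after an enema of 0.1 mL. Groups received saline or 5 mg of DNBS, a hapten that causes colitis, in 50% ethanol, and daily injections over 3 days of 0.1% DMSO or of 0.5 mg/kg GR159897, which blocks the neurokinin-2 receptor, starting 24 hours before the enema. The groups are called Saline_Vehicle, DNBS_Vehicle, Saline_GR159897 and DNBS_GR159897, and each held 3 libraries, 12 in all. No ethanol is listed for the saline enema, and effects of DNBS and ethanol cannot be told apart. The labels do not say whether the libraries of a group came from separate mice, and p-values then measure only the spread between these libraries, which may be technical.

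The unit is FPKM, in which fragments are scaled by transcript length and by the mapped fragments of the library, and the depth of each library is unknown. Differences between groups are on the scale of log2(FPKM + 1), given with a standard error, and were tested with limma over all genes that reached 1 FPKM in at least 3 libraries. A gene is called when its Benjamini-Hochberg adjusted p over all genes is under 0.05. The pseudocount of 1 understates the changes of genes near 1 FPKM, such as Tnfaip2 and the merged Icam1 locus. Of the 10 members 9 passed this filter. Tnfaip3 did not, and Tnfaip2 passed largely through DNBS libraries, which were 5 of the 6 libraries where it reached 1 FPKM.

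The libraries differed in more than their groups. Loci with an annotated transcript took 75.42% to 95.11% of summed FPKM in the 6 saline libraries, 53.76% to 84.03% in DNBS_Vehicle, and 22.56%, 56.43% and 64.52% in DNBS_GR159897. The glial marker S100b lay at 1.17 FPKM in DNBS_GR159897 replicate 1 and at 94.03 FPKM or more in the other 11 libraries. The glial transcription factor Sox10 lay at 1.3, 4.63 and 6.79 FPKM in DNBS_GR159897, against 9.04 FPKM or more elsewhere. In DNBS_GR159897 replicate 1, 10 epithelial markers summed to 1522 FPKM, against at most 92.97 FPKM elsewhere. Summed over 8 neutrophil markers, the level was 0.37 to 1.96 FPKM in Saline_Vehicle, 11.86 to 578 FPKM in DNBS_Vehicle, 0.49 to 12.16 FPKM in Saline_GR159897 and 41.23 to 256 FPKM in DNBS_GR159897. The sums of 11 macrophage markers ran from 43.66 to 116 FPKM in saline libraries and from 38.3 to 271 FPKM in DNBS libraries. Lyz2 alone ran from 34.33 to 100.61 FPKM in saline and from 7.63 to 226.31 FPKM in DNBS libraries, so these sums largely follow it. The number of the 11 markers at 1 FPKM or more did separate. It was 3 to 5 in Saline_Vehicle, 7 to 9 in DNBS_Vehicle, 3 to 6 in Saline_GR159897 and 9 to 10 in DNBS_GR159897. The 6 lymphocyte markers summed to at most 7.37 FPKM, with the T cell marker Cd3e at 0 in 10 of 12 libraries. Because RNA of several cell types is present, fewer cells of a type and less RNA per cell cannot be told apart.

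**Figure D1:**
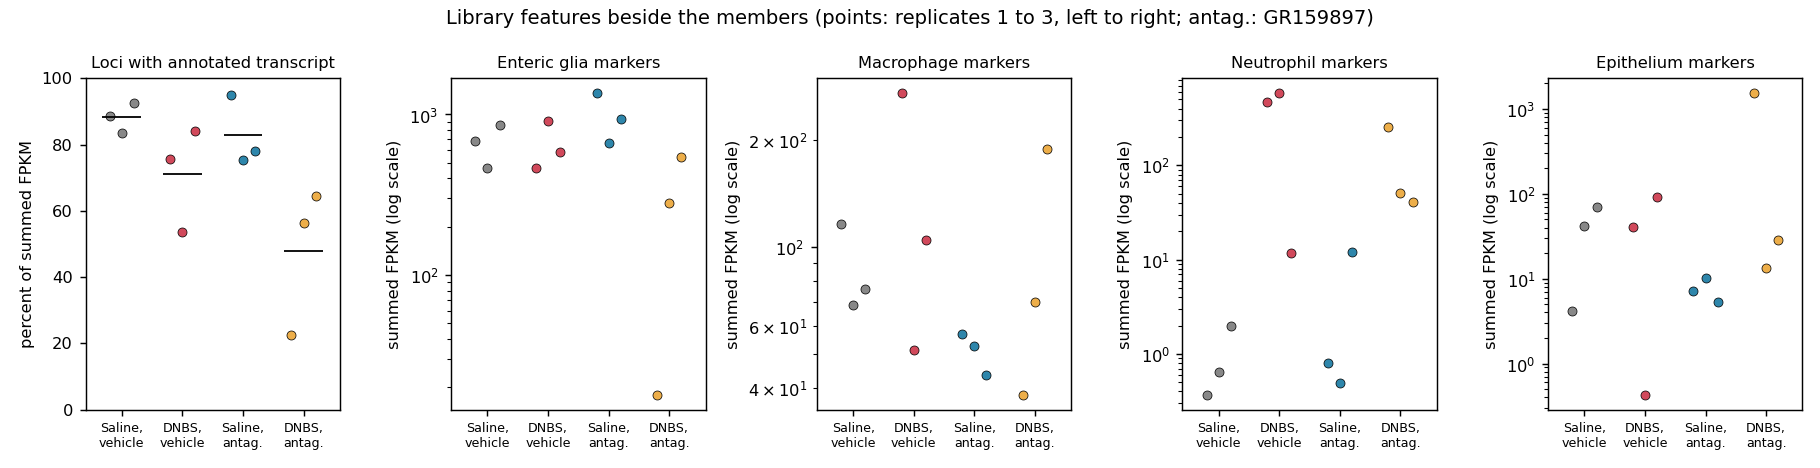
Share of summed FPKM on loci with an annotated transcript (percent, bar at the group mean) and summed FPKM of 4 marker lists (log scale) in each of the 12 libraries. The glial marker Gfap is blank in Saline_Vehicle, so the glial sums of that group leave it out and are not like for like with the other groups. DNBS_GR159897 replicate 1 has the lowest annotated share, 22.56%, and the highest epithelial sum, 1522 FPKM, and the neutrophil sums of 5 of the 6 DNBS libraries lie above those of all 6 saline libraries.

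NF-kB dimers bind DNA at kB sites, and several members are textbook examples of genes with such sites near their start. Promoter sequences (RefSeq, GRCm38.p6) matched 7 of the 10 members by symbol, and the 250 bases before each start were searched on both strands for the 10-letter NF-kB consensus and for the shorter GGANTTTCC, which can overlap it. The Nfkbia and Icam1 windows are shown in full, since Nfkbia is the classical IkB feedback gene and Icam1 a classical effector gene. Both are printed 5′ to 3′ on the strand of the gene, with letters that match either motif in capitals. The Nfkbia window lies at chr12:55492648-55492897 on the minus strand and the Icam1 window at chr9:21015690-21015939 on the plus strand.
Nfkbia: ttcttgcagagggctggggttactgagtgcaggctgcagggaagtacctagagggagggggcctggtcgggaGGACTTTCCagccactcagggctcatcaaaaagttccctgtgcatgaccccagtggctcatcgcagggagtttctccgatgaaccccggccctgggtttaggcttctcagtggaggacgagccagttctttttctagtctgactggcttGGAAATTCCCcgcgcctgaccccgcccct
Icam1: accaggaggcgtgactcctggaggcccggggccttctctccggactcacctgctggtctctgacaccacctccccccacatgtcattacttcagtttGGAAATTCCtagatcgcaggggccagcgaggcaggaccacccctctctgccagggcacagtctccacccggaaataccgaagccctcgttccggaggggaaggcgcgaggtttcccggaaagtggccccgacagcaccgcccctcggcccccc

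Nfkbia held 2 matches, the first base of which lay 178 and 29 bases before the start, and at the nearer one both motifs overlapped. Icam1 held 1 match of GGANTTTCC, 153 bases before the start. For the other members with a match, a selection of the matching stretches shows the letters, 2 of 4 for Nfkb2, 1 of 2 for Tnfaip3 and both for Tnfaip2. The 2 of Nfkb2 come from windows of different annotated starts. The stretches shown lie at chr19:46304689-46304717 and chr19:46305695-46305724 (plus strand) for Nfkb2, at chr10:19015411-19015438 (minus strand) for Tnfaip3, and at chr12:111442564-111442592 and chr12:111442627-111442656 (plus strand) for Tnfaip2.
Nfkb2, one start: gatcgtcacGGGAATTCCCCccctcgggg
Nfkb2, another start: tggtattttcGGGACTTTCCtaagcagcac
Tnfaip3: gactGGAATTTCCatcGGAAATCCCCct
Tnfaip2, first stretch: gtccgccagcGGATTTTCCgcggttgcgg
Tnfaip2, second stretch: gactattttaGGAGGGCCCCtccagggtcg

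The consensus matched in 4 of the 7 members (57.14%), against 8.23% of 27025 genes with a promoter in the table, and GGANTTTCC in 5 of the 7 (71.43%) against 1.25%. The members were known NF-kB targets when chosen, so these shares describe them and test nothing. Bcl3 and Birc3 had no match of these letters in their windows. Of the 5 members with GGANTTTCC, Tnfaip2 was called in 1 of the comparisons below, Nfkbia, Nfkb2 and the merged Icam1 locus were called in 0, and Tnfaip3 did not pass the filter on low values.

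**Figure D2:**
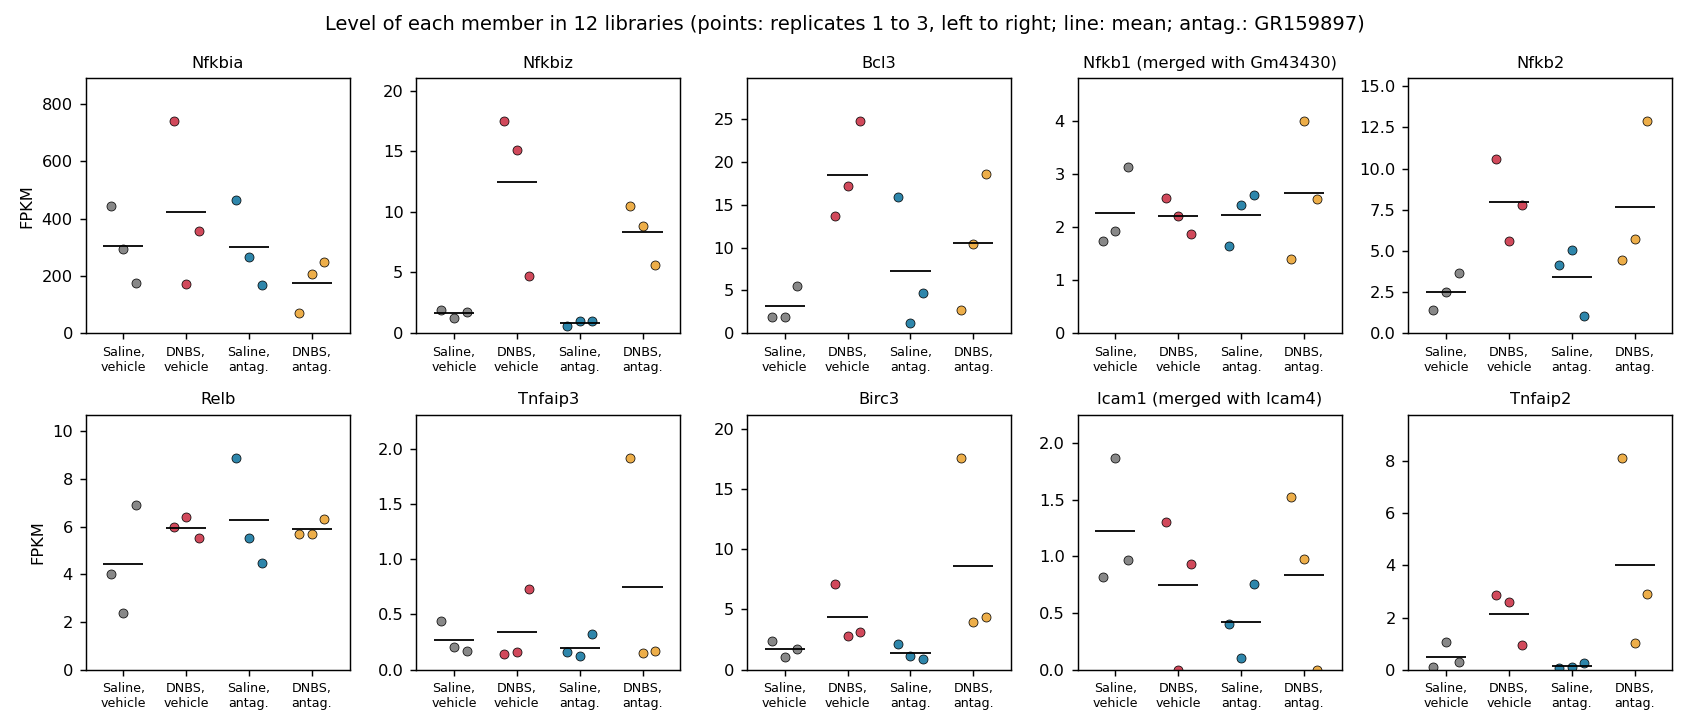
FPKM (linear axis from 0) of each of the 10 members in the 12 libraries by group, with points for replicates 1 to 3 and a line at the group mean. Nfkbiz and Birc3 lie higher in all 6 DNBS libraries than in all 6 saline libraries, Nfkbia lies between 69.13 and 742 FPKM throughout, and Tnfaip3 exceeds 1 FPKM in 1 library.

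The first question was which members differed with DNBS colitis. Nfkbiz rose, whether averaged over both drug arms or within the GR159897 arm, and Birc3 and Tnfaip2 rose in the average. Nfkb2 and Bcl3 had values of similar size that did not pass. Nfkbia, Relb, and the merged Nfkb1 and Icam1 loci had changes in the average between −0.27 and 0.20.

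Among the genes of IkB proteins, Nfkbiz encodes IkB-zeta, a nuclear IkB protein that works with NF-kB dimers on secondary response genes such as Il6 and Lcn2. Its levels were 1.92, 1.23 and 1.73 FPKM in Saline_Vehicle, against 17.50, 15.09 and 4.67 FPKM in DNBS_Vehicle. In the antagonist arm they were 0.61, 1.02 and 0.96 FPKM in Saline_GR159897, while the 3 DNBS_GR159897 libraries had 10.50, 8.79 and 5.59 FPKM. All 6 DNBS libraries lay above all 6 saline libraries, with the lowest DNBS value in DNBS_Vehicle replicate 3 at 4.67 FPKM, still above the highest saline value of 1.92 FPKM. The group means ± SD (n = 3) were 1.63 ± 0.356, 12.4 ± 6.82, 0.863 ± 0.221 and 8.29 ± 2.49 FPKM in the order above.

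The log2 fold change of Nfkbiz with DNBS was 2.19 ± 0.44 in the vehicle arm (95% interval 1.23 to 3.15, limma adjusted p = 0.0698) and 2.29 ± 0.44 in the GR159897 arm (1.33 to 3.25, adjusted p = 0.0374). Averaged over both arms it was 2.24 ± 0.31 (1.56 to 2.92, adjusted p = 0.00317). The gene thus passed in the GR159897 arm and not in the vehicle arm, but the interaction, which tests the difference between the arms, was 0.10 ± 0.63 (adjusted p = 0.988). In the vehicle arm Nfkbiz passed without DNBS_Vehicle replicate 3, its lowest DNBS library (2.72, adjusted p = 0.0157), and without DNBS_GR159897 replicate 1 (adjusted p = 0.0351), which enters that test only through the shared spread. In the GR159897 arm it did not pass without any 1 of the 6 saline libraries, nor without DNBS_GR159897 replicate 1 (adjusted p = 0.0781) or replicate 2 (0.0503). The average over both arms passed in all 12 fits that left out 1 library. It did not pass with the annotated share as a term in the model (1.70, adjusted p = 0.0862).

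Nfkbia encodes IkB-alpha, the inhibitor that NF-kB re-induces soon after activation and that carries it back out of the nucleus. It was the most abundant member, with a mean of 300.2 FPKM over the 12 libraries. Its mean on the scale of log2(FPKM + 1) lay above that of 99.3% of the genes tested. Its values were 445, 293 and 176 FPKM in Saline_Vehicle, against 742, 170.0 and 356 FPKM in DNBS_Vehicle. In Saline_GR159897 they were 464, 266 and 169 FPKM, and in DNBS_GR159897 69.13, 206 and 247 FPKM. The groups overlapped, and the highest and the lowest libraries were both DNBS libraries. The change averaged over both arms was −0.27 ± 0.51 (95% interval −1.37 to 0.84, adjusted p = 0.772), an interval that holds changes of more than 1 downward as well as 0. The sign turned with the annotated share as a term (0.88) and with library weights (0.28).

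Bcl3 encodes a nuclear IkB protein that binds p50 and p52 homodimers. Its values were 1.93, 1.90 and 5.53 FPKM in Saline_Vehicle, while the 3 DNBS_Vehicle libraries had 13.65, 17.16 and 24.82 FPKM, with no overlap. In the antagonist arm they were 15.89, 1.19 and 4.69 FPKM with saline and 2.71, 10.46 and 18.56 FPKM with DNBS, and these groups overlapped. Saline_GR159897 replicate 1 was high for a saline library and DNBS_GR159897 replicate 1 low for a DNBS library. The log2 fold change was 2.32 ± 0.73 in the vehicle arm (adjusted p = 0.217), 0.66 ± 0.73 in the GR159897 arm (adjusted p = 0.611) and 1.49 ± 0.52 in the average (adjusted p = 0.0857). Without DNBS_GR159897 replicate 1 the average was 1.82 (adjusted p = 0.0364). Exons of Bcl3 overlap the antisense gene Gm16175, and reads of both strands count together in these values.

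Among the subunit genes, Nfkb2 encodes p100, which is processed to p52 in the non-canonical branch and holds Relb in the cytoplasm until then. It lay at 1.38, 2.48 and 3.62 FPKM in Saline_Vehicle, against 10.57, 5.62 and 7.78 FPKM in DNBS_Vehicle. In Saline_GR159897 it lay at 4.11, 5.02 and 1.02 FPKM and in DNBS_GR159897 at 4.44, 5.73 and 12.90 FPKM. The vehicle groups did not overlap and the antagonist groups did. The average change was 1.19 ± 0.36 (adjusted p = 0.0526), with 1.38 ± 0.50 in the vehicle arm (adjusted p = 0.279) and 1.01 ± 0.50 in the GR159897 arm (adjusted p = 0.249). The average passed without DNBS_GR159897 replicate 1 (adjusted p = 0.0400) and without Saline_GR159897 replicate 2 (0.0452). Exons of Nfkb2 overlap those of Psd and AC114539.1 on the opposite strand.

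Relb encodes the partner of p52. It lay at 4.02, 2.39 and 6.89 FPKM in Saline_Vehicle, while the 3 DNBS_Vehicle libraries had 5.96, 6.41 and 5.50 FPKM. It lay at 8.89, 5.50 and 4.49 FPKM in Saline_GR159897, against 5.69, 5.69 and 6.31 FPKM in DNBS_GR159897. The 6 DNBS libraries sat within the range of the saline libraries, and the average change was 0.20 ± 0.27 (95% interval −0.39 to 0.79, adjusted p = 0.665).

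The merged Nfkb1 locus, which holds the gene of p105 and p50, gave 1.73, 1.92 and 3.13 FPKM in Saline_Vehicle, while the 3 DNBS_Vehicle libraries had 2.54, 2.20 and 1.86 FPKM. With the antagonist it gave 1.64, 2.41 and 2.60 FPKM with saline and 1.39, 4 and 2.52 FPKM with DNBS. All groups overlapped. The average change was 0.06 ± 0.25 (95% interval −0.48 to 0.59, adjusted p = 0.903).

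Tnfaip3 and Birc3 encode ubiquitin regulators. Tnfaip3 (A20), which edits ubiquitin chains on upstream signalling proteins and shuts the pathway off, was near the bottom of the range. It lay at 0.44, 0.21 and 0.17 FPKM in Saline_Vehicle, at 0.14, 0.16 and 0.73 FPKM in DNBS_Vehicle, at 0.16, 0.12 and 0.32 FPKM in Saline_GR159897, against 1.92, 0.15 and 0.17 FPKM in DNBS_GR159897. The single value above 1 FPKM was that of DNBS_GR159897 replicate 1. In a fit without the filter the average change was 0.23 ± 0.24 (adjusted p = 0.611), and at these levels a change on the log2(FPKM + 1) scale is compressed.

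Birc3 encodes cIAP2, a ubiquitin ligase of TNF receptor complexes that restrains cell death. It lay at 2.36, 1.03 and 1.76 FPKM in Saline_Vehicle, while the 3 DNBS_Vehicle libraries had 7.14, 2.77 and 3.15 FPKM. It lay at 2.13, 1.1 and 0.90 FPKM with the antagonist and saline and at 17.61, 3.95 and 4.36 FPKM with the antagonist and DNBS. All 6 DNBS libraries were above all 6 saline libraries, with 2.77 against 2.36 FPKM at the closest point. Birc3 rose in the average by 1.34 ± 0.36 (95% interval 0.56 to 2.13, adjusted p = 0.0389). The change was 0.92 ± 0.51 in the vehicle arm (adjusted p = 0.495) and 1.77 ± 0.51 in the GR159897 arm (adjusted p = 0.0858). Its highest library, DNBS_GR159897 replicate 1, was the library with high epithelial markers, and without it the average was 1.04 (adjusted p = 0.0411). The call was lost in 8 of the 12 fits that left out 1 library, namely each saline library, DNBS_Vehicle replicate 1 and DNBS_Vehicle replicate 3, and it was lost with a sex term (0.0613) and with FPKM scaled to the annotated total (0.0607).

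Of the effector genes, Tnfaip2 encodes a protein of membrane protrusions that is induced by TNF. It lay at 0.12, 1.05 and 0.29 FPKM in Saline_Vehicle, against 2.85, 2.60 and 0.94 FPKM in DNBS_Vehicle. It lay at 0.07, 0.09 and 0.24 FPKM in Saline_GR159897, while the 3 DNBS_GR159897 libraries had 8.14, 1.04 and 2.91 FPKM. The vehicle groups overlapped at DNBS_Vehicle replicate 3, and the antagonist groups did not. Tnfaip2 rose in the average by 1.47 ± 0.35 (95% interval 0.72 to 2.22, adjusted p = 0.0250), with 1.06 ± 0.49 in the vehicle arm (adjusted p = 0.396) and 1.89 ± 0.49 in the GR159897 arm (adjusted p = 0.0666). Without DNBS_GR159897 replicate 1, its highest library, the average was 1.19 (adjusted p = 0.0267). The call was lost without Saline_Vehicle replicate 1 (0.0633) or replicate 3 (0.0661), without DNBS_Vehicle replicate 1 (0.0548) and without Saline_GR159897 replicate 1 (0.0642). Exons of Tnfaip2 overlap the antisense gene Gm40578.

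Icam1 encodes an adhesion molecule that binds leukocyte integrins. The merged Icam1 locus gave 0.82, 1.87 and 0.97 FPKM in Saline_Vehicle, then 1.3 and 0.93 FPKM in DNBS_Vehicle replicates 1 and 3, with replicate 2 listed at 0. It gave 0.40, 0.10 and 0.76 FPKM in Saline_GR159897, then 1.52 and 0.98 FPKM in DNBS_GR159897 replicates 1 and 2, with replicate 3 listed at 0. The DNBS and saline libraries overlapped, and the average change was −0.06 ± 0.30 (95% interval −0.71 to 0.60, adjusted p = 0.929). Exons of Icam1 also overlap the antisense gene Gm47079.

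**Figure D3:**
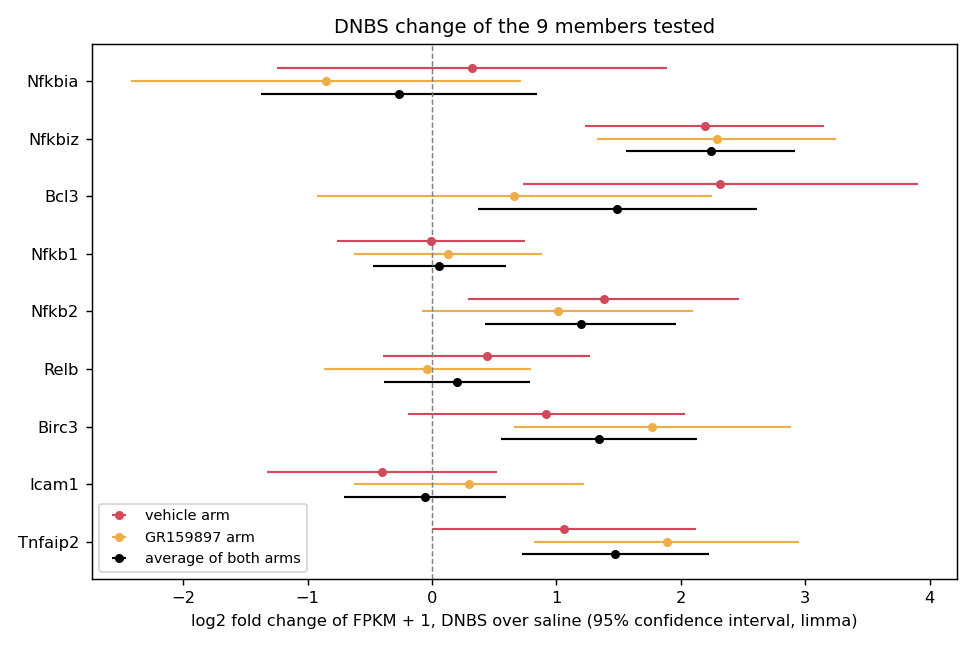
Log2 fold change of FPKM + 1 with DNBS for the 9 members tested, in the vehicle arm, in the GR159897 arm and averaged over both (points, with 95% confidence intervals from limma). The intervals of Nfkbiz lie above 1 in all 3 estimates, while those of Nfkbia, Nfkb1, Relb and Icam1 include 0 in all 3.

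Set against all genes, the members' counts read as follows. In the average over both arms 3 of the 9 members tested were called, all higher, where 2.76% of 12777 genes were called higher (353 higher and 873 lower; 407 and 613 when FPKM was scaled to the annotated total). The members' median was 1.19 and that of all genes −0.18. In the vehicle arm 0 members were called by limma and 3 had an unadjusted p under 0.05 (Nfkbiz, Bcl3 and Nfkb2), where 0.235% of genes were called higher and 1612 genes had an unadjusted p under 0.05. In the GR159897 arm 1 member was called higher, where 0.383% of genes were (49 higher and 127 lower; 50 and 41 when scaled). The 2 arms share no libraries, but the average is made of both.

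Counted by overlap, 4 members had all 3 DNBS_Vehicle libraries above all 3 Saline_Vehicle libraries (Nfkbiz, Bcl3, Nfkb2 and Birc3), which held for 9.53% of all genes. In the antagonist arm 3 did (Nfkbiz, Birc3 and Tnfaip2), against 6.67% of genes. All 6 DNBS libraries lay above all 6 saline libraries for Nfkbiz and Birc3, against 1.74% of genes. Tnfaip2 passed the filter through its DNBS libraries, so its presence among the genes tested already leans on that difference.

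Some library features moved with these results. Apart from DNBS_Vehicle replicate 3, the neutrophil marker sums of DNBS libraries lay above those of all saline libraries. DNBS_Vehicle replicate 3, at 11.86 FPKM, lay just below Saline_GR159897 replicate 3 at 12.16 FPKM. In DNBS_Vehicle the sums were 469, 578 and 11.86 FPKM, beside 17.50, 15.09 and 4.67 FPKM of Nfkbiz. In DNBS_GR159897 they were 256, 51.35 and 41.23 FPKM, beside 10.50, 8.79 and 5.59 FPKM of Nfkbiz. Both were lowest among DNBS libraries in DNBS_Vehicle replicate 3. DNBS_Vehicle replicate 3 had 11.86 FPKM over the 8 neutrophil markers. In it S100a8 lay at 8.69, Il1r2 at 2.36, Mmp8 at 0.36, S100a9 at 0.33 and Csf3r at 0.12 FPKM, and Retnlg, Cxcr2 and Ly6g at 0. Beside these it had 4.67 FPKM of Nfkbiz and 24.82 FPKM of Bcl3, the highest Bcl3 value of all 12 libraries. DNBS_GR159897 replicate 1 held the highest value of 3 members (Tnfaip3, Birc3 and Tnfaip2) and the lowest of 2 (Nfkbia and the merged Nfkb1 locus). The part of neutrophil, macrophage or epithelial RNA in the members' changes was not tested. Without DNBS_GR159897 replicate 1, Nfkbiz was called with an average change of 2.15 (adjusted p = 0.00377), Tnfaip2 with 1.19 (adjusted p = 0.0267) and Birc3 with 1.04 (adjusted p = 0.0411). With the annotated share as a term, Nfkbiz (adjusted p = 0.0862), Tnfaip2 (0.494) and Birc3 (0.451) were not called, and Bcl3 was (2.89, adjusted p = 0.0496).

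**Figure D4:**
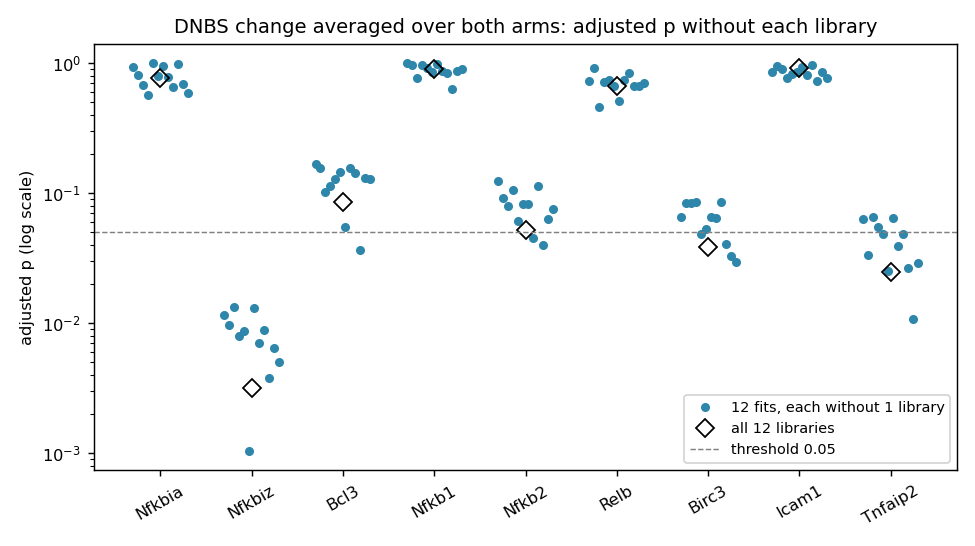
Limma adjusted p (log scale) of the DNBS change averaged over both arms for the 9 members, with all 12 libraries (diamonds) and in 12 fits that each left out 1 library (points). The points of Nfkbiz stay between 0.00104 and 0.0134, those of Birc3 and Tnfaip2 lie on both sides of 0.05, and Bcl3 and Nfkb2 pass in 1 and 2 fits.

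The second question was what GR159897 did to these genes. Without colitis, 0 of the 9 members were called between Saline_GR159897 and Saline_Vehicle, where 0% of genes were called by limma and 217 had an unadjusted p under 0.05, none of them a member. The changes ran from −0.64 for the merged Icam1 locus to 0.64 for Bcl3, with an adjusted p of 1 throughout. For Nfkbiz all 3 Saline_GR159897 values (0.61 to 1.02 FPKM) lay below all 3 Saline_Vehicle values (1.23 to 1.92 FPKM), as they did for the merged Icam1 locus. That held for 4.18% of genes, and the change of Nfkbiz was −0.49 ± 0.44 (95% interval −1.46 to 0.47).

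During colitis, 0 members were called between DNBS_GR159897 and DNBS_Vehicle, where 0% of genes were called by limma and 1039 had an unadjusted p under 0.05, none of them a member. No member had groups that did not overlap, against 10.1% of genes in either direction. The estimates ran from −1.22 ± 0.72 for Nfkbia (adjusted p = 0.624) to 0.65 ± 0.51 for Birc3 (adjusted p = 0.666). Bcl3 was at −1.02 ± 0.73 (adjusted p = 0.652) and Nfkbiz at −0.40 ± 0.44 (95% interval −1.36 to 0.57, adjusted p = 0.758). These intervals span changes of up to 1 and more on the log2 scale, so 3 libraries a group leave changes of that size undetermined. In the interaction 0 members were called, where 0% of genes were called by limma and 458 had an unadjusted p under 0.05, none of them a member. The values ran from −1.66 ± 1.04 for Bcl3 to 0.85 ± 0.73 for Birc3, with adjusted p of 0.957 to 0.988.

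The rest of the pathway was read from 5 lists of receptors, kinases, other Rel and IkB proteins, other negative regulators and other target genes. In the average over both arms the target genes held most of the calls: 8 of the 19 tested, of 24 listed, rose and 0 fell, with a median of 1.77. Over all genes 2.76% were called higher and the median was −0.18. Several of these are expressed by leukocytes and stroma as well as glia. Il6, a cytokine, lay at 4.14, 3.41 and 4.56 FPKM in DNBS_Vehicle, at 1.38, 0.91 and 5.71 FPKM in DNBS_GR159897 and at 0.26 FPKM or less in the 6 saline libraries. Il6 and Ptgs2 reached 1 FPKM in DNBS libraries only, so they passed the filter through those. Saa3, Cxcl1, Cxcl2 and Ptx3, given below, reached 1 FPKM in fewer than 3 saline libraries, so they too passed only with DNBS libraries. The count of 8 calls therefore leans on the same difference that was tested. Il6 rose by 1.91 (adjusted p = 0.00438) and Ptgs2, the inducible cyclooxygenase, by 2.40 (0.00797). The acute phase gene Saa3 rose by 4.22 (0.00821), the lipocalin Lcn2 by 3.13 (0.0159) and the pentraxin Ptx3 by 2.57 (0.0496). The chemokines Ccl2, Cxcl2 and Cxcl1 rose by 2.98 (0.0204), 3.47 (0.0239) and 2.53 (0.0252). Il6 and Ptgs2 were also called in the vehicle arm, at 2.20 (adjusted p = 0.0458) and 3.52 (0.0310), where 0.235% of all genes were called higher. In the average Il6, Ptgs2, Saa3 and Lcn2 were called in all 12 fits that left out 1 library, Ccl2 in 9, Cxcl2 in 10, Cxcl1 in 8 and Ptx3 in 2. In the vehicle arm Il6 was called in 3 of 12 and Ptgs2 in 7. With the annotated share as a term Il6 and Ccl2 were the target genes among these 8 that were still called. In the other 4 comparisons limma called 0 genes of the 5 lists. Of the 19 target genes 8 in the GR159897 arm, 6 for GR159897 in DNBS, 3 in the interaction and 0 for GR159897 in saline had an unadjusted p under 0.05. Over all genes these numbers were 2900 of 12778, 1039 of 12778, 458 of 12777 and 217 of 12777. For GR159897 in DNBS 15 of the 19 target genes had negative changes and 4 positive ones, with a median of −0.68. In the interaction 16 were negative and 3 positive, with a median of −0.99. The medians of all genes were −0.21 and −0.18 there, and 0.11 and 0.15 when FPKM was scaled to the annotated total.

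Upstream of the IkB proteins, 2 of 15 receptors and adaptors tested, of 16 listed, rose in the average and 0 fell, where 2.76% of all genes were called higher. Their median was −0.02. They were Tnfrsf1b, a TNF receptor, by 1.52 ± 0.38 (adjusted p = 0.0300), and Il1r1, the interleukin-1 receptor, by 0.96 ± 0.25 (adjusted p = 0.0326). Of the 7 libraries where Il1r1 reached 1 FPKM, Saline_Vehicle replicate 2 was the only saline library. Il1r1 thus passed the filter through DNBS libraries, and its call leans on that difference. Tnfrsf1b was called in 7 of the 12 fits that left out 1 library and Il1r1 in 5. The adaptor Traf6 was at 0.62 (adjusted p = 0.110). Of 9 kinase genes 0 were called by limma and 1 had an unadjusted p under 0.05, where 3611 of 12777 genes did in the average. The median of the kinase genes was 0.51, and their lowest adjusted p was that of Ikbkb, the IkB kinase beta, at 0.82 (0.0775). Ikbke and Tbk1, the IkB kinase-related kinases, were at 0.71 (0.232) and 0.51 (0.274).

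No other inhibitor gene was called. Of 4 other Rel and IkB genes tested, of 5 listed, 0 were called by limma, 1 had an unadjusted p under 0.05, and the median was 0.28. Over all genes 3611 of 12777 had an unadjusted p under 0.05 in the average. Rel, a subunit, was at 0.54 (adjusted p = 0.117), Nfkbib at −0.67 (0.389) and Nfkbie at 0.41 (0.443). Of 11 other negative regulators tested, of 12 listed, 0 were called by limma, 1 had an unadjusted p under 0.05, and the median was 0.15. The ubiquitin ligase Birc2, the paralog of Birc3, was at 0.84 (0.141), the RNase Zc3h12a at 0.58 (0.211) and the decoy kinase Irak3 at 0.47 (0.307).

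**Figure D5:**
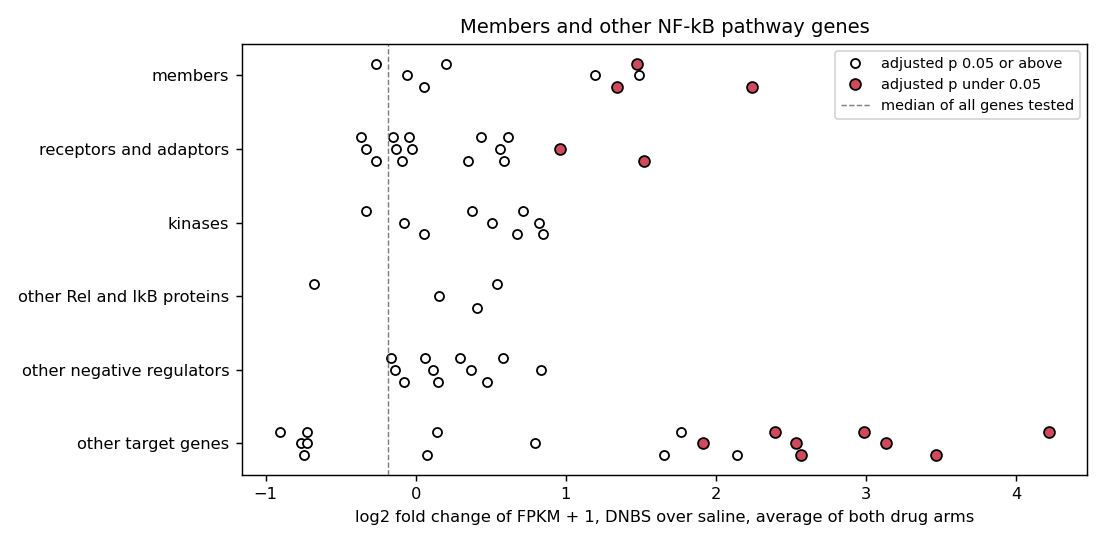
Log2 fold change of FPKM + 1 with DNBS, averaged over both drug arms, of the 9 members tested and of 5 lists of other NF-kB pathway genes (1 point per gene, filled where the limma adjusted p was under 0.05, dashed line at the median of all genes, −0.18). The filled points are 3 members, 2 receptors and 8 target genes, all to the right.

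Last, genes with a pattern like that of a member across the 12 libraries were sought for Nfkbiz, Nfkbia and Relb by Pearson r of log2(FPKM + 1). The values describe these 12 libraries, which share the group structure and the library features above. For Nfkbiz they were Kif22, a kinesin (r = 0.95), Dusp2, a MAP kinase phosphatase (0.95), and Slfn2, a schlafen of immune cells (0.93), and without DNBS_GR159897 replicate 1 they were 0.97, 0.94 and 0.93. For Nfkbia they were Hmgb3, Tubb4a and Med6 at 0.92, 0.89 and 0.88, and without that library 0.86, 0.80 and 0.79. For Relb, Atad1 was among the most alike, at 0.88, and at 0.91 without that library.

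On GRCm38 in the GENCODE annotation, Nfkbiz (ENSMUSG00000035356) lies at chr16:55811375-55838899 on the minus strand, Birc3 (ENSMUSG00000032000) at chr9:7848699-7873186 on the minus strand, and Tnfaip2 (ENSMUSG00000021281) at chr12:111442469-111455018 on the plus strand. Bcl3 (ENSMUSG00000053175) lies at chr7:19808462-19822770 on the minus strand, Nfkb2 (ENSMUSG00000025225) at chr19:46304320-46312385 on the plus strand and Nfkbia (ENSMUSG00000021025) at chr12:55489410-55492647 on the minus strand. The Nfkb2 promoter windows from RefSeq lie inside the GENCODE span of that gene.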

How the data were processed

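The authors deposited FPKM values with 2 decimals per assembled locus for 12 libraries, for which cDNA of 1 ng RNA was made with SMART-seq v4 and Nextera, per the labels' protocols. The submitters' processing notes list StringTie 1.3, HISAT2 2.0, FastQC 0.10.1 and cutadapt 1.10 without their roles. The genome build of the table is not stated there, depth is unknown, and 0 columns of values were left unmapped. Loci with an Ensembl transcript were kept, 1 per name. Gfap was blank in Saline_Vehicle and left out where that group enters, which leaves 12777 of 12778 genes.

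The model had a coefficient for each of the 4 groups over all 12 libraries (8 residual degrees of freedom) on log2(FPKM + 1), fitted in R 4.3.3 by limma 3.58.1, whose prior was trended and robust. A gene entered if 3 or more libraries reached 1 FPKM. Tests were two-sided, with Benjamini-Hochberg adjustment over every gene that entered. The procedure was also run on simulated data, with independent errors and with changes added to DNBS_Vehicle only. Those data held no deviations of whole libraries, and the averaged contrast was not examined in them. Other software was numpy 2.4.6, pandas 2.3.3 and matplotlib 3.10.9 under Python 3.11.15. Positions come from GENCODE M21.

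The members, the pathway and marker lists and the averaged contrast were chosen with earlier results of these data known, so the calls are no independent support. All 10 members are named. Of each pathway list, genes past the threshold in any comparison and the 3 with the smallest p in the averaged contrast are named. For Nfkbiz, Nfkbia and Relb the 3 genes with the highest Pearson r over the 12 libraries were found, and some of those for Relb are not reported here. Females made up 2 of 3 libraries in DNBS_GR159897 and 1 of 3 in the other groups. The labels name no batch. Alternatives were a pseudocount of 0.1, no filter, a replicate block, a sex term, scaling to the annotated total, library weights, only the groups compared, leaving out each library and, added after the data were seen, the annotated share as a term.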

Additional observations from a re-analysis of the deposited data

Results flagged for a closer look

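Beside the annotated loci, the table holds loci that carry a member's name without an annotated transcript, which no comparison above uses. For Nfkbiz there were 2 such loci. Their summed level was 4.82, 1.29 and 0.54 FPKM in DNBS_Vehicle and 9.52, 3.23 and 1.76 FPKM in DNBS_GR159897, so that the lowest libraries, at 0.54 and 1.76 FPKM, lay above the highest Saline_Vehicle library at 0.07 FPKM. In Saline_GR159897 they summed to 0, 0.52 and 0.13 FPKM. For Nfkb1 there were 32 such loci, with 67.99, 53.46 and 17.59 FPKM in DNBS_GR159897, the lowest of which (17.59) lay above the highest Saline_Vehicle library at 9.88 FPKM. Saline_GR159897 reached 17.38 FPKM and DNBS_Vehicle 13.70 FPKM. These sums exceeded the level of the merged Nfkb1 locus in all 12 libraries. For Icam1 there was 1 such locus, at 14.84, 6.47 and 1.12 FPKM in DNBS_GR159897 against at most 0.59 FPKM in Saline_Vehicle and 1.23 FPKM in Saline_GR159897. In DNBS_Vehicle it was at 2.35, 0 and 1.54 FPKM. For all 3 genes the highest value was in DNBS_GR159897 replicate 1, the library with the lowest annotated share (22.56%). The part of that share in these values was not tested.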

How the results depend on the processing

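Of 1062 changes of single members under the alternatives, 992 kept their sign and 70 did not. The average DNBS change of Nfkbiz was called in 18 of 19 alternatives, that of Tnfaip2 in 13 and that of Birc3 in 7. The Nfkbiz call in the GR159897 arm held in 7 of 20 and was lost with a sex term (0.0666), without the filter (0.0793), with only the groups compared (0.131) and with the annotated share as a term (0.393). That share, added after the data were seen, differs between the groups, so its effect and that of DNBS cannot be told apart in that fit. Depth is unknown and levels near 1 FPKM limit what could be called.

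The numbers of genes called in the vehicle arm (41) became 21 with a pseudocount of 0.1, 13 without the filter, 24 with a sex term, 514 with library weights and 110 with only the groups compared, and members called became 2 with weights and 1 with the share term. In the GR159897 arm the 176 genes became 42, 18, 25, 2154 and 9 in the same order, 91 when scaled to the annotated total and 1 with the share term, and the 1 member became 0 without the filter, with the sex term, with only these groups and with the share term, and 2 with weights. In the average the 1226 genes became 442 without the filter, 800 with the sex term, 3009 with weights and 68 with the share term, and the 3 members became 1, 2, 5 and 1. For GR159897 in saline, 0 genes became 1 with a pseudocount of 0.1, 1 when scaled, 5 with weights and 1 with the share term. For GR159897 in DNBS they became 2, 3 and 69 with the pseudocount, scaling and weights, and for the interaction 2, 1 and 5. Scaling moved the median of all genes from −0.18 to −0.04 in the average and from −0.21 to 0.11 for GR159897 in DNBS. Leaving out 1 library gave 0 to 176 genes in the vehicle arm, 0 to 3 and 0 to 6 for GR159897 in saline and in DNBS, 4 to 604 in the GR159897 arm, 397 to 1655 in the average and 0 to 2 in the interaction. Members called then were 0 to 1 in either arm, 1 to 5 in the average and 0 elsewhere.

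With the replicate block 18 genes were called in the vehicle arm, 31 in the GR159897 arm and 986 in the average, and the 1 member of the GR159897 arm was lost (Nfkbiz, adjusted p = 0.0585). Deviations of same-numbered libraries from their group means correlated at −0.09 to 0.20 over 18 pairs (median 0.02), with 2 over 0.1. Those of other-numbered libraries correlated at −0.27 to 0.22 over 36 pairs (median 0.0007), with 3 over 0.1. No pairing by number was seen in these values, but they cannot exclude that same-numbered libraries were handled together.

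For the genes of the pathway lists the share term turned the average change of Nfkbib to 0.71 and of Birc2 to −0.11. None of the members whose sign turned was called in the comparison where it did so, and the cause was not tested. With library weights the vehicle arm gave Nfkb1 0.0298, GR159897 in saline gave Nfkb1 0.0688 and Nfkb2 −0.0761, GR159897 in DNBS gave Birc3 −0.18, Icam1 −0.0408 and Tnfaip2 −0.44, the GR159897 arm gave Relb 0.0841, the average gave Nfkbia 0.28 and Icam1 0.0817, and the interaction gave Tnfaip2 −0.16. With the share term the vehicle arm gave Nfkb1 0.13, GR159897 in saline gave Nfkbia 0.19 and Nfkb1 0.0367, and GR159897 in DNBS gave Bcl3 0.23, Nfkb2 0.40, Relb 0.17, Icam1 −0.0678 and Tnfaip2 −0.25. That term gave Nfkbia 0.69 and Relb 0.23 in the GR159897 arm, Nfkbia 0.88 in the average, and Nfkbiz −0.27 and Nfkb2 0.043 in the interaction. Scaled to the annotated total, GR159897 in saline gave Nfkb1 0.0005, GR159897 in DNBS gave Nfkbiz 0.0583, Nfkb2 0.29 and Relb 0.42, the GR159897 arm gave Relb 0.37, the average gave Icam1 0.0857 and the interaction gave Nfkb2 0.0535. With a sex term GR159897 in DNBS gave Icam1 −0.13 and the interaction gave Nfkbiz −0.0569. Leaving out 1 library gave changes on both sides of 0 in the vehicle arm for Nfkbia (−0.21 to 0.85) and Nfkb1 (−0.12 to 0.18). For GR159897 in saline it did so for Nfkbia (−0.42 to 0.30), Bcl3 (−0.11 to 1.36), Nfkb1 (−0.12 to 0.18) and Nfkb2 (−0.0688 to 0.72). For GR159897 in DNBS it did so for Nfkb1 (−0.14 to 0.40), Nfkb2 (−0.53 to 0.14), Relb (−0.0597 to 0.0349), Icam1 (−0.30 to 0.44) and Tnfaip2 (−0.0851 to 1.00). The GR159897 arm had Bcl3 (−0.06 to 1.41), Nfkb1 (−0.14 to 0.40) and Relb (−0.22 to 0.21), the average had Nfkbia (−0.53 to 0.0166), Nfkb1 (−0.0721 to 0.19) and Icam1 (−0.20 to 0.14), and the interaction had Nfkbiz (−0.44 to 0.42) and Nfkb1 (−0.13 to 0.40).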
